A study of Mus musculus with 24 samples.

Results

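The genes described here are 10 genes of the exocrine pancreas, Prss2, Try5, Ctrb1, Cela1, Cela2a, Cela3b, Cpa1, Cpb1, Pnlip and Reg1, chosen by name from the 49315 mouse genes counted in each library. They were followed through 24 RNA libraries of intrahepatic cholangiocytes, the epithelial cells that line the bile ducts inside the liver. The study compared male and female mice carrying the dnTGFB transgene, a dominant-negative TGF-β receptor used as a model of primary biliary cholangitis, with wild-type (WT) mice, each with and without secretin. As background, this receptor is known to act in T cells, where a CD4 promoter drives it, and not in the bile duct cells themselves. Groups follow the library titles and the series description, because for 12 of the 24 libraries the labelled genotype contradicts the title. The 8 groups were dnTGFB secretin, dnTGFB, WT secretin and WT in each sex, with 3 libraries a group. Osmotic minipumps released secretin for 8 weeks, at a daily dose of 4 µg per kg. The treated mice were 40 weeks old at the end and the untreated WT mice 32 weeks, so secretin and age change together in the comparison with untreated WT mice. For untreated dnTGFB mice the sources used here give no age. All cells were captured with an antibody against intrahepatic cholangiocytes and magnetic beads. Each group was 1 pool of 6 to 8 mice whose RNA was sequenced in triplicate, so the p-values reflect differences among libraries made from one pool, which may be technical, and say nothing of variation among mice.

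The exocrine pancreas makes its digestive enzymes in acinar cells, which store them as inactive precursors in secretory granules and release them into the pancreatic ducts. In the gut lumen enteropeptidase cuts trypsinogen, and the trypsin so formed activates chymotrypsinogen, the proelastases and the procarboxypeptidases, while lipase is secreted active. Secretin is a hormone that makes pancreatic duct cells and cholangiocytes secrete bicarbonate, whereas enzyme release is driven mainly by cholecystokinin and acetylcholine. Cholangiocytes are not known as a usual source of these enzymes. Prss2 and Try5 encode trypsinogens and Ctrb1 encodes chymotrypsinogen B. Cela1, Cela2a and Cela3b encode members of the elastase family, Cpa1 and Cpb1 the carboxypeptidases A1 and B1, and Pnlip the pancreatic triglyceride lipase. Reg1 encodes a secreted lectin of acinar cells that is known to be induced by injury and inflammation.

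Several of these genes have near copies, which bears on how far their counts can be read. Prss2 and Try5 lie on chromosome 6 among a cluster of trypsinogen copies, and their 738 coding bases were 90.4% identical, while Try5 and Try4, a copy outside the 10 genes, were 97.4% identical with an unbroken shared run of 274 bases. The longest run shared by Prss2 and Try5 was 62 bases. A window of 120 coding bases around that run, from bases 515 to 634 of each GENCODE M21 coding sequence, shows how a short read from the middle would match both genes, with capitals marking the bases that differ from Prss2:
Prss2: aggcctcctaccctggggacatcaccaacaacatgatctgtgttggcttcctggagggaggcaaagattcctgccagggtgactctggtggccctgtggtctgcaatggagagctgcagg
Try5: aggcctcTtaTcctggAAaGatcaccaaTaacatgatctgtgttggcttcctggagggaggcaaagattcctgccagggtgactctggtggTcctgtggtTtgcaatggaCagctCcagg
Try4: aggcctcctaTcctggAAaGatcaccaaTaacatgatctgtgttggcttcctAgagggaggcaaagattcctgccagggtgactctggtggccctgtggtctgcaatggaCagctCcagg

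Of all stretches of 50 bases in their transcripts, 7.83% in Prss2, 47.6% in Try5 and 33.2% in Cela3b occurred also in a transcript of another gene. In Cela3b the other gene was its close relative Cela3a. At 100 bases the shares were 0% in Prss2, 22.5% in Try5 and 12.6% in Cela3b. The sources used here state neither the read length nor the treatment of reads that match several genes, so the counts of Try5 in particular are uncertain. Cela2a overlaps exons of Ctrc on the same strand and of Casp9 on the opposite strand, and 25.6% of its 50-base stretches occurred in Ctrc transcripts, so its counts can hold reads of these genes. Cela1, Cpa1, Cpb1, Ctrb1 and Pnlip shared no stretch of 50 bases, and Reg1 shared 3.65%.

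Some libraries stood apart from their group or went against their labels. The libraries labelled female WT secretin 2 and 3 and female dnTGFB 1 and 2 held 53782 to 61940 CPM (counts per 1000000 counts of the library) of 10 heart muscle marker genes. In these 4 libraries the Y-linked gene Ddx3y was at 46.8 to 64.3 CPM, against 64.7 to 151 CPM in the male libraries and 1.36 to 6.02 CPM in the other 8 libraries labelled female. Xist, the RNA of the inactive X chromosome in females, was at 34 to 42.4 CPM in the 3 male WT secretin libraries, against 0.206 to 5.74 CPM in the other male libraries. It was at 12.7 to 74.7 CPM in the 4 heart-rich libraries and at 37.8 to 435 CPM in the other libraries labelled female. The male WT secretin libraries therefore carried both Ddx3y, at 77.6 to 81.8 CPM, and Xist. Male dnTGFB library 3 held 16411 CPM of heart muscle markers and 1429218 counts in all, so that 1 count was 0.7 CPM in it, while the other 23 libraries held 6483182 to 104003184 counts. As a further check, all libraries were thinned to equal totals and compared pair by pair with a chi-square averaged over genes, where sampling noise gives about 1. Female WT 2 lay closest to female dnTGFB secretin 1 (1.16), although the nearest library of its own group stood at 10.5. Female WT secretin 1 lay closest to female dnTGFB secretin 3 (1.44), with 62.8 to the nearest library of its own group. Female dnTGFB 3 lay closest to female WT 1, and male WT 1 lay closest to male dnTGFB 2. The female WT secretin and dnTGFB groups therefore each consist of 2 heart-rich libraries and 1 library that resembles another group. Cholangiocyte markers, Krt19, Epcam and Spp1 among them, were counted in every library, but their sum over 12 genes ran between 94.5 and 6170 CPM. A sum over 12 hepatocyte markers exceeded it in 19 of the 24 libraries.

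All 10 genes had at least 1 count in all 24 libraries. The 10 genes together reached 536 to 565 CPM in male dnTGFB secretin libraries, 38.8 to 58.1 CPM in male dnTGFB, 203 to 209 CPM in male WT secretin and 51.5 to 87.3 CPM in male WT. In libraries labelled female they reached 251 to 1329 CPM in dnTGFB secretin, 19.1 to 664 CPM in dnTGFB, 6.84 to 228 CPM in WT secretin and 997 to 1345 CPM in WT. The secretin-treated male groups were tight and the untreated male groups less so. In libraries labelled female 3 of the 4 groups spread widely, and the lowest 3 sums of all were in heart-rich libraries. In bulk RNA, fewer cells of a type and less RNA per cell cannot be told apart, so these levels say nothing of how many cells carried the transcripts.

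**Figure D1:**
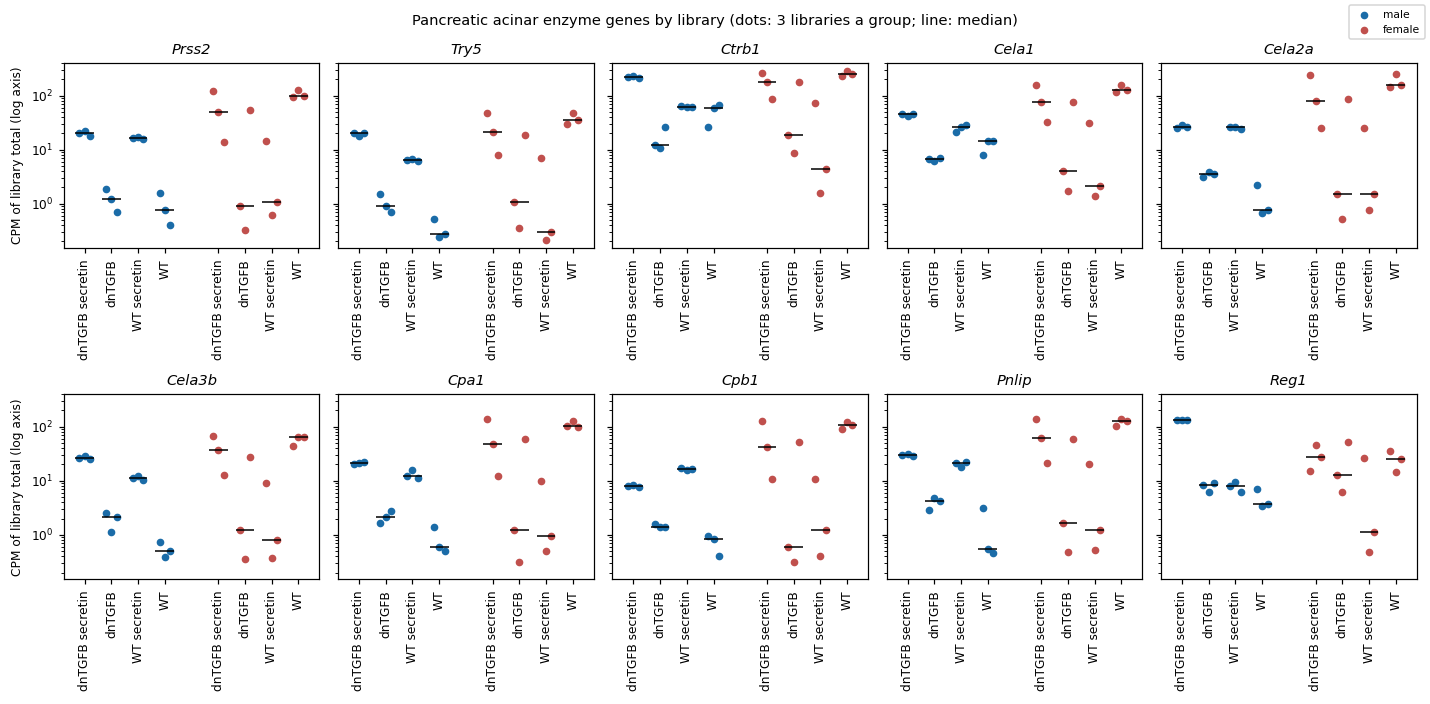
CPM of each of the 10 genes in each of the 24 libraries, on a log axis, with libraries grouped by labelled sex, genotype and secretin. Each point is 1 library and each line a group median; the male dnTGFB secretin and WT secretin libraries lie close together, and the libraries labelled female WT secretin 2 and 3 and dnTGFB 1 and 2 lie low for most genes.

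Most genes ordered the groups in a similar way. Female WT had the highest mean for all of the genes but Reg1, as with Prss2 at 107 ± 17.8 CPM (SD, n = 3) and Ctrb1 at 257 ± 23.1 CPM (SD, n = 3). Female dnTGFB secretin came next for all of these genes but Ctrb1, with libraries that overlapped those of female WT. Reg1 was highest in male dnTGFB secretin at 134 ± 1.75 CPM (SD, n = 3), and none of those libraries overlapped any other group. Compared per length, as RPKM, which is CPM divided by exon length in kilobases, Ctrb1 was the most abundant of the 10 genes in female WT libraries at 293 ± 26.3 RPKM (SD, n = 3), ahead of Prss2 at 131 ± 21.8 RPKM. In male dnTGFB secretin libraries Ctrb1 was again first at 249 ± 12 RPKM (SD, n = 3), but Reg1 was second at 148 ± 1.94 RPKM and Prss2 stood at 24.7 ± 2.38 RPKM.

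Secretin treatment of WT males went with higher levels of most of these enzyme genes. The libraries labelled male WT secretin carried Xist as well as Ddx3y, as given above, and the part of this in the result was not tested. In the edgeR quasi-likelihood test with Benjamini-Hochberg adjustment, 8 of the 10 genes rose and none fell, against 3.55% of 18777 tested genes that rose and 2.67% that fell. Both trypsinogens, all 3 elastases, both carboxypeptidases and the lipase rose, while Ctrb1 and Reg1 did not pass the test. The median log2 fold change of the 10 genes was 3.65, against 0.00 over all tested genes. Here and below, fold changes rest on library sizes scaled by the trimmed mean of M-values (TMM), and a gene was called at an adjusted p under 0.05.

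Prss2, a trypsinogen, had 16.3, 17.1 and 15.8 CPM in male WT secretin libraries, against 1.59, 0.777 and 0.41 CPM in male WT libraries. The treated libraries all lay above the untreated ones, and the log2 fold change was 3.73 ± 0.54 (SE; edgeR adjusted p = 0.00322). Cpb1, which encodes the enzyme that removes basic residues from peptide ends, had 17.5, 16 and 16.5 CPM in male WT secretin, against 0.96, 0.826 and 0.41 CPM in male WT. Its log2 fold change of 4.18 ± 0.40 (SE; edgeR adjusted p = 0.000389) was the largest of the 10. Cela3b followed with 11.1, 12.4 and 10.5 CPM in male WT secretin, against 0.728, 0.389 and 0.501 CPM in male WT. The other genes that rose had log2 fold changes of 3.95 for Cela2a, 3.82 for Try5, 3.57 for Cpa1, 3.38 for Pnlip and 0.85 for Cela1. Ctrb1, the chymotrypsinogen gene, had 62.9, 61.3 and 62.7 CPM in male WT secretin, against 25.9, 59.6 and 65.7 CPM in male WT. Its groups overlapped, with male WT library 1 the low one, and the log2 fold change was 0.16 ± 0.17 (SE; edgeR adjusted p = 0.637). Reg1 had 7.98, 9.47 and 6.28 CPM in male WT secretin, against 7.09, 3.45 and 3.73 CPM in male WT, which also overlapped.

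Other cell type markers moved in the same comparison. Of 6 mesothelial markers 5 rose, and of 8 B cell markers 6 fell. Cholangiocyte markers summed to 2648 to 2693 CPM in male WT secretin and 1437 to 3671 CPM in male WT, and 1 of the 12 rose and 1 fell. Hepatocyte markers summed to 15278 to 16051 CPM in male WT secretin and 3289 to 10844 CPM in male WT. Mitochondrial genes took 19.4 to 19.5% of the counts in male WT secretin libraries, against 42.8, 9.73 and 9.76% in male WT. Their part in the result was not tested.

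Secretin treatment of dnTGFB males also went with higher levels, and here Ctrb1 and Reg1 rose too. Of the 10 genes 9 rose and none fell, against 10.1% of tested genes that rose and 12.4% that fell. The gene that missed the threshold was Pnlip, at a log2 fold change of 1.98 ± 0.69 (SE; edgeR adjusted p = 0.0604). The median over the 10 genes was 2.62, against -0.05 over all tested genes.

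Ctrb1 had 217, 230 and 209 CPM in male dnTGFB secretin libraries, against 12.3, 10.9 and 26.6 CPM in male dnTGFB libraries. No library overlapped, and the log2 fold change of 3.07 ± 0.18 (SE) had an edgeR adjusted p of 1.3e-05. Reg1 had 132, 135 and 134 CPM in male dnTGFB secretin, against 8.47, 6.1 and 9.1 CPM in male dnTGFB, a log2 fold change of 3.21 ± 0.43 (SE; edgeR adjusted p = 0.00105). Prss2 had 20.6, 21.7 and 17.9 CPM in male dnTGFB secretin, against 1.84, 1.21 and 0.7 CPM in male dnTGFB. The last of these values is a single count in male dnTGFB library 3, whose exact 95% Clopper-Pearson interval reaches 3.90 CPM for counting error only. The log2 fold change of Prss2 was 2.80 ± 0.55 (SE; edgeR adjusted p = 0.00872). The other changes were 3.08 for Try5, 2.88 for Cela3b, 2.45 for Cpa1, 1.95 for Cela2a, 1.82 for Cela1 and 1.45 for Cpb1 on the log2 scale.

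Cholangiocyte markers moved with these genes: 10 of 12 rose, and their sum was 6093 to 6170 CPM in male dnTGFB secretin and 551 to 733 CPM in male dnTGFB. All 9 macrophage and Kupffer cell markers rose, while 6 of 12 hepatocyte markers and 9 of 10 neuronal markers fell. Neuronal markers summed to 424, 403 and 6471 CPM in male dnTGFB libraries, against 379, 427 and 452 CPM in male dnTGFB secretin. On the CPM scale only male dnTGFB library 3 thus stood far above the treated libraries. Mitochondrial genes took 5.50, 5.31 and 5.66% of the counts in male dnTGFB secretin libraries, against 55.1, 55.0 and 11.4% in male dnTGFB. The part of these markers and shares in the result was not tested.

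**Figure D2:**
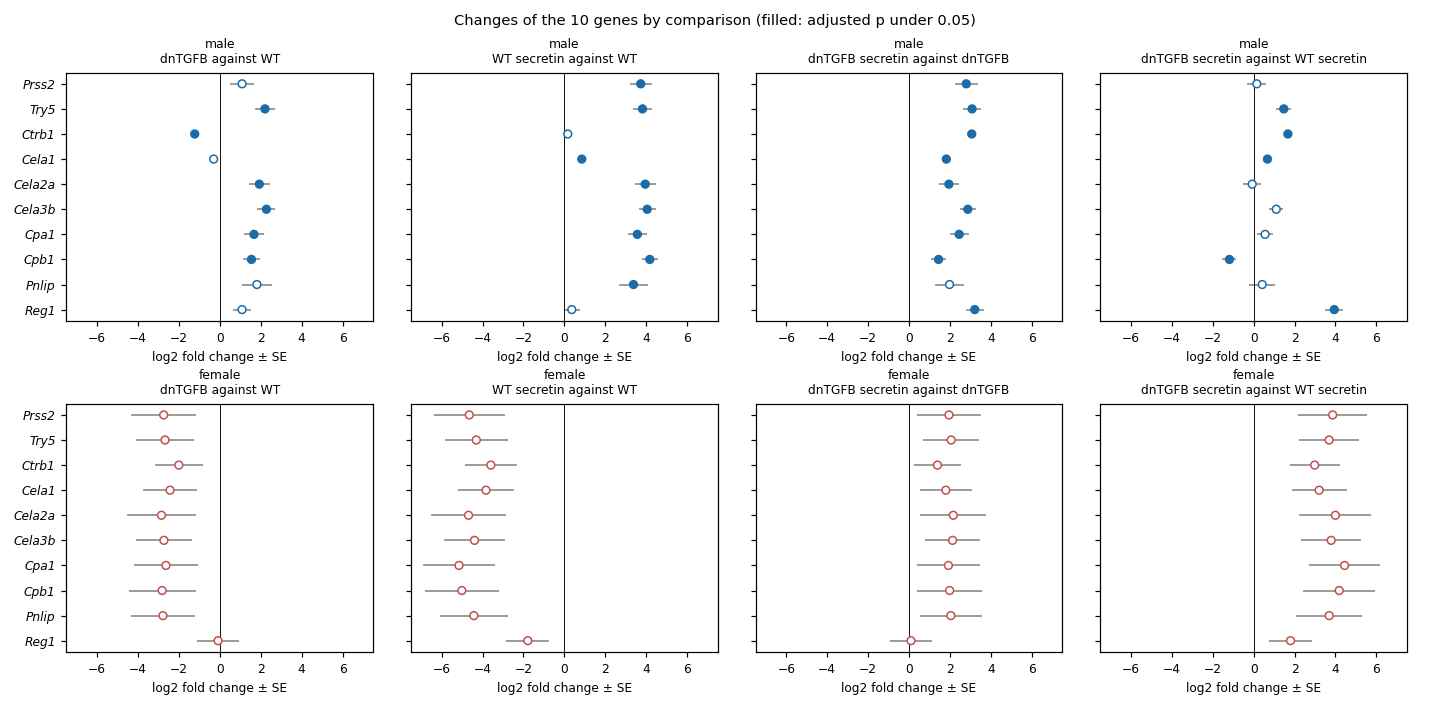
Fitted log2 fold changes of the 10 genes in the comparisons within each sex, with bars of 1 standard error and filled points for an adjusted p under 0.05. In males the secretin comparisons lie above 0 for most genes with short bars, and in libraries labelled female the bars are far longer.

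The dnTGFB genotype without secretin shifted these genes in both directions in males. In the edgeR test 5 rose and 1 fell, against 8.55% of tested genes that rose and 8.46% that fell. Apart from Ctrb1 and Cela1, levels were low, at 9.1 CPM at most, and several calls rested on few counts. Ctrb1 fell, with 12.3, 10.9 and 26.6 CPM in male dnTGFB libraries against 25.9, 59.6 and 65.7 CPM in male WT libraries. On the CPM scale the highest dnTGFB library lies above the lowest WT library, whereas on the TMM scale the groups did not overlap, and the log2 fold change was -1.23 ± 0.17 (SE; edgeR adjusted p = 0.00385).

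Cela3b rose, with 2.56, 1.11 and 2.1 CPM in male dnTGFB against 0.728, 0.389 and 0.501 CPM in male WT, a log2 fold change of 2.28 ± 0.44 (SE; edgeR adjusted p = 0.00732). Try5, Cela2a, Cpa1 and Cpb1 rose by 2.21, 1.93, 1.67 and 1.55 on the log2 scale. Prss2, Pnlip, Reg1 and Cela1 did not pass the test, at 1.09, 1.81, 1.09 and -0.30. In a fit of the 6 libraries of these groups alone, none of the 10 genes was called. Leaving out male WT 2, male WT 3, male dnTGFB 1 or male dnTGFB 2 left 2, 2, 3 and 3 genes called, in that order, whereas 9 were called without male WT 1. Without both male WT 1 and male dnTGFB 3, 8 genes were higher and 1 lower, with a median log2 fold change of 2.56. Shares over all tested genes in the fits without named libraries are not given here, so these counts have no background beside them. Of the 12 cholangiocyte markers 8 fell, all 8 B cell markers fell and all 10 neuronal markers rose, the last with a sum of 6471 CPM in male dnTGFB library 3. Mitochondrial genes took 55.1, 55.0 and 11.4% of the counts in male dnTGFB libraries, against 42.8, 9.73 and 9.76% in male WT. Their part in the result was not tested.

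Among secretin-treated males, dnTGFB and WT differed mainly in Reg1 and Ctrb1. The WT secretin libraries here are those that carried Xist as well as Ddx3y. Of the 10 genes 4 were higher and 1 lower in dnTGFB secretin, against 5.75% of tested genes higher and 7.19% lower. Reg1 had 132, 135 and 134 CPM in male dnTGFB secretin, against 7.98, 9.47 and 6.28 CPM in male WT secretin, a log2 fold change of 3.94 ± 0.43 (SE; edgeR adjusted p = 0.000336). Ctrb1 had 217, 230 and 209 CPM in male dnTGFB secretin, against 62.9, 61.3 and 62.7 CPM in male WT secretin, a log2 fold change of 1.67 ± 0.17 (SE; edgeR adjusted p = 0.000206). Neither gene overlapped between the groups.

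Try5 and Cela1 were higher by 1.47 and 0.68 on the log2 scale. Cpb1 was the gene that fell, with 8.03, 8.42 and 7.75 CPM in male dnTGFB secretin against 17.5, 16 and 16.5 CPM in male WT secretin (log2 fold change -1.18 ± 0.34, SE; edgeR adjusted p = 0.0437). The calls of Cpb1, Try5 and Cela1 were lost without any 1 of the 6 libraries, whereas those of Reg1 and Ctrb1 held each time. The edgeR adjusted p of Cpb1 was then 0.119 to 0.16. Prss2, at 20.6, 21.7 and 17.9 CPM in male dnTGFB secretin and 16.3, 17.1 and 15.8 CPM in male WT secretin, had a log2 fold change of 0.16 ± 0.47 (SE; edgeR adjusted p = 0.867). Of 12 cholangiocyte markers 6 were higher and 1 lower, and 7 of 8 B cell markers and 5 of 6 mesothelial markers were lower. Their part in the result was not tested.

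The secretin by genotype interaction, the secretin effect in dnTGFB minus that in WT, was called for 4 of the 10 genes in males. It was positive for 3 and negative for 1, against 8.1% of tested genes positive and 7.51% negative. Ctrb1 stood at 2.90 ± 0.24 (SE; edgeR adjusted p = 0.000153), Reg1 at 2.85 ± 0.58 (edgeR adjusted p = 0.0106) and Cela1 at 0.98 ± 0.29 (edgeR adjusted p = 0.0437). Cpb1 stood at -2.73 ± 0.54 (SE; edgeR adjusted p = 0.00932), its secretin effect being smaller in dnTGFB. The term includes the male WT secretin libraries, which carried Xist as well as Ddx3y. Without male WT library 1 and male dnTGFB library 3, all 10 genes were called, 3 positive and 7 negative, so the number of genes that differ rests on these libraries. The share over all tested genes without these libraries is not given here. In the same term 8 of 12 cholangiocyte markers were positive and 1 negative, and 6 of 9 macrophage and Kupffer cell markers were positive. Of the mesothelial markers 5 of 6 were negative, as were 4 of 12 hepatocyte and 4 of 10 neuronal markers. Their part in the result was not tested.

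The mix of the 10 transcripts differed between groups as well as their amount. Per length, Ctrb1 was at a median of 9.82 times Prss2 in male dnTGFB secretin, against 3.58 times in male WT secretin. Reg1 was at 5.76 times Prss2 in male dnTGFB secretin, against 0.441 times in male WT secretin. Cpb1 went the other way, at 0.0966 times Prss2 in male dnTGFB secretin and 0.259 times in male WT secretin. Try5 was at 0.907 times Prss2 in male dnTGFB secretin and 0.350 times in male WT secretin, with the caution on shared trypsinogen reads given above. In untreated male WT libraries Ctrb1 was at 15.1 to 149 times Prss2, where Prss2 had 9 to 48 counts a library.

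**Figure D3:**
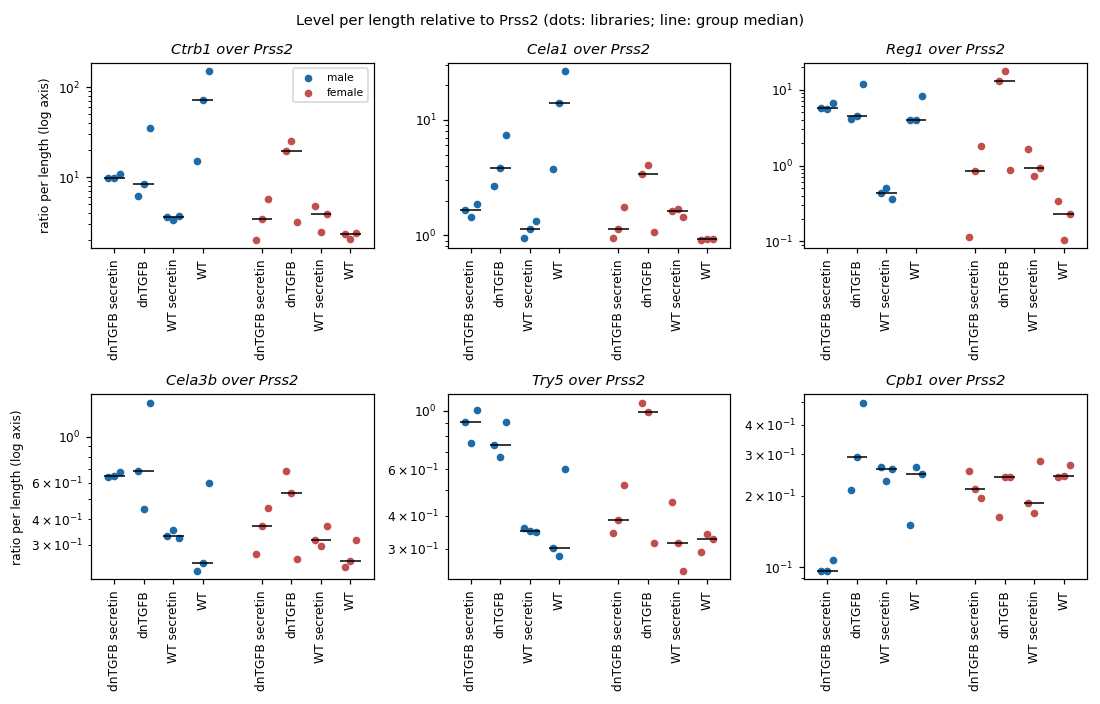
Per-length level of Ctrb1, Cela1, Reg1, Cela3b, Try5 and Cpb1 divided by that of Prss2 in the same library, on log axes, by group, with 1 point a library and a line at the group median. Ctrb1 and Reg1 lie higher and Cpb1 lower in male dnTGFB secretin than in male WT secretin.

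In libraries labelled female the same comparisons gave wide errors and no call for any of the 10 genes. The background was 0% of 19882 tested genes in each of the 4 direct comparisons. At an unadjusted p under 0.05, 0 of the 10 genes passed in dnTGFB against WT, 9 in WT secretin against WT, 0 in dnTGFB secretin against dnTGFB and 9 in dnTGFB secretin against WT secretin. Over all tested genes 19.4, 26.5, 18.2 and 22.4% passed in the same comparisons. DESeq2 called 9 genes in WT secretin against WT, where it called 13.3% of all tested genes, and 5 in dnTGFB secretin against WT secretin, where it called 7.02%.

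Prss2 had 14.2, 0.606 and 1.07 CPM in libraries labelled female WT secretin, against 93.6, 127 and 99.8 CPM in female WT, a log2 fold change of -4.65 ± 1.74 (SE; edgeR adjusted p = 0.15). The groups did not overlap, but the lowest values were those of the heart-rich libraries. It had 0.889, 0.319 and 53.2 CPM in libraries labelled female dnTGFB, a log2 fold change against female WT of -2.74 ± 1.59 (SE; edgeR adjusted p = 0.332). In female dnTGFB secretin it had 123, 49.1 and 13.9 CPM, and its highest and lowest libraries are those that lay closest to female WT 2 and to female WT secretin 1.

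Reg1 had 15.5, 45.8 and 27.9 CPM in female dnTGFB secretin, 12.7, 6.13 and 52.1 CPM in female dnTGFB, 25.9, 0.49 and 1.1 CPM in female WT secretin and 35.2, 14.8 and 25.6 CPM in female WT. The 4 groups overlapped. The female interaction was called for 1 of the 10 genes, Cela3b, at 6.52 ± 2.00 (SE; edgeR adjusted p = 0.0484), against 4.03% of tested genes positive and 13.9% negative.

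These results rest on which libraries are kept. Without the 4 heart-rich libraries, the female WT secretin and dnTGFB groups held 1 library each, both closest to a library of another group. Median log2 fold changes of the 10 genes were then -1.26 for dnTGFB against WT and -3.08 for WT secretin against WT. They were 0.46 for dnTGFB secretin against dnTGFB and 2.41 for dnTGFB secretin against WT secretin, and each rests on 1 library in a group. Without the libraries farthest from their groups (WT 2, WT secretin 1, dnTGFB 3 and dnTGFB secretin 1), all 10 were called in each direct comparison, and the WT secretin and dnTGFB groups then held heart-rich libraries alone. The share over all tested genes in that fit is not given here, so this count is not a result about these genes in particular. The heart-rich libraries and the treatment or genotype therefore cannot be told apart in that fit.

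No sex difference of an effect, the female minus the male one, was called for any of the 10 genes. The backgrounds were 6.86% of 20222 tested genes for dnTGFB against WT, 0% for WT secretin against WT, 7.75% for dnTGFB secretin against dnTGFB and 0.198% for dnTGFB secretin against WT secretin. At an unadjusted p under 0.05 the numbers of genes were 6, 9, 1 and 4 in the same order, against 26.2, 22.4, 26.6 and 22.4% of all tested genes. DESeq2 called 5, 9, 1 and 1, against 12.5, 9.39, 15.1 and 10.5% of all tested genes. The median difference for WT secretin against WT was -8.29 on the log2 scale. Sex is taken here from labels that some libraries go against. The male WT secretin libraries carried Xist as well as Ddx3y. The libraries labelled female WT secretin 2 and 3 and dnTGFB 1 and 2 were heart-rich and carried Ddx3y. The part of these libraries in the differences was not tested.

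Across the 24 libraries 7 of the genes, Cela3b, Cela2a, Prss2, Try5, Cpa1, Cpb1 and Pnlip, ranked the libraries in nearly the same order, a grouping made after their values were seen. The Spearman rho was 0.884 to 0.988 over their 21 pairs. With these 7, rho was 0.871 to 0.929 for Cela1, 0.782 to 0.899 for Ctrb1 and 0.584 to 0.82 for Reg1. These are descriptions over libraries that share pools. Among 15968 genes searched, those most like Cela3b and Cela2a included the trypsinogen copies 2210010C04Rik and Try4. Cela1 was most like Sycn, which encodes a zymogen granule protein (rho 0.97). Ctrb1 was most like Clps, which encodes the cofactor of pancreatic lipase (rho 0.937). Reg1 was most like Slpi, a secreted protease inhibitor (rho 0.958), and the immunoglobulin genes Ighg1 (0.937) and Ighg2b (0.922).

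Other acinar genes rose with secretin in part. Of 26 listed genes 17 could be tested in males, and 7 of them (41.2%, against 3.55% of all tested genes) rose in WT secretin against WT, led by Pnliprp2 (4.71), Rnase1 (4.04) and Cel (3.70) on the log2 scale. Counts in male WT libraries were low, at 0, 0 and 2 for Pnliprp2, 8, 1 and 6 for Rnase1 and 37, 1 and 14 for Cel. In dnTGFB secretin against dnTGFB 5 rose (29.4%, against 10.1%), Pnliprp1 by 3.03, Sycn by 3.03 and Pnliprp2 by 2.79 among them. Counts in male dnTGFB libraries were 11, 9 and 2 for Pnliprp1, 12, 1 and 1 for Sycn and 2, 2 and 0 for Pnliprp2. In dnTGFB against WT 2 rose (11.8%, close to the 8.55% of all tested genes), Rnase1 by 2.81 and Spink1, the trypsin inhibitor of acinar cells, by 2.37. Both calls rested on few counts. Rnase1 had 23, 10 and 1 counts in male dnTGFB and 8, 1 and 6 in male WT. Spink1 had 25, 29 and 12 counts in male dnTGFB and 32, 6 and 11 in male WT. The 12 counts were in male dnTGFB library 3, the smallest library. In dnTGFB secretin against WT secretin 2 were higher (11.8%, against 5.75%), Reg2 by 5.44 and Zg16 by 1.27. Over the 24 libraries 13 of the 26 reached 10 CPM in some library, and 9 of those had a rho of at least 0.9 with the sum of the 7 genes.

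Of the pancreatic amylase genes, Amy2a5 stayed at 0 to 0.81 CPM and Amy2b at 0 to 1.1 CPM, and Ctrc reached 0.81 CPM at most. The further annotated copies Amy2a1, Amy2a2, Amy2a3 and Amy2a4 were not followed. Amy2a5, Amy2b and Ctrc were singled out after their values were seen, and 57.2% of the 50-base stretches of Amy2a5 occur in other genes. Ptf1a, the transcription factor that drives acinar identity, had no count in 22 of the 24 libraries and at most 0.148 CPM. Of 8 acinar transcription factors, 6 could be tested in males, and Bhlha15 (2.12) and Gata6 (0.57) rose in dnTGFB secretin against dnTGFB, with no call in the other 3 direct male comparisons. Of 11 receptor and secretion genes 2 rose and 3 fell in male dnTGFB secretin against dnTGFB. Sctr, the secretin receptor, rose by 2.70 on the log2 scale. Sctr is also among the 12 cholangiocyte markers, of which 10 rose in this comparison. Cckar, a cholecystokinin receptor, was among those that fell, but near the limit of detection, with 4, 7 and 4 counts in dnTGFB secretin libraries and 6, 6 and 1 counts in dnTGFB libraries.

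**Figure D4:**
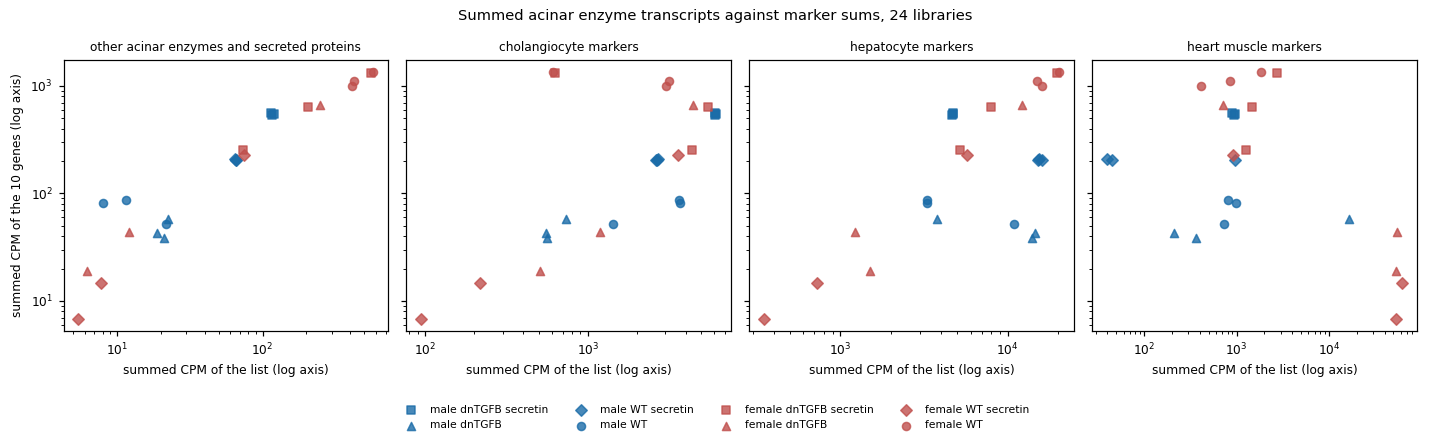
Summed CPM of the 10 genes in each library (vertical) against the summed CPM of other acinar genes, cholangiocyte, hepatocyte and heart muscle markers (horizontal), on log axes, with 1 point a library. The 10 genes sum to 6.84 to 43.6 CPM in the 4 heart-rich libraries labelled female and to 38.8 to 565 CPM in the male libraries.

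The sum of the 7 genes was compared with the marker sums over the same libraries. Its rho was 0.969 with the other acinar genes and 0.738 with hepatocyte markers. It was 0.639 with macrophage and Kupffer cell, 0.591 with gastric and salivary gland and 0.557 with neuronal markers. For islet, cholangiocyte, intestinal and neutrophil markers it was 0.412, 0.399, 0.377 and 0.283. For B cell, mesothelial and heart muscle markers it was 0.0322, 0.00435 and -0.242. All these sums share each library's total. In male dnTGFB secretin the hepatocyte sum was 4677 to 4712 CPM while the 7 genes summed to 148 to 158 CPM. In male WT secretin the hepatocyte sum was 15278 to 16051 CPM and the 7 genes summed to 107 to 112 CPM.

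RefSeq promoters of GRCm38.p6 were at hand for 9 of the 10 genes. Acinar genes are known to be bound upstream by the PTF1 complex, whose site joins an E-box to a TTTCC box. CANNTG followed after 3 to 7 bases by TTTCC, searched on both strands, was found in the 250 bases before the start of Ctrb1 and Cela1 and in 1.75% of 32851 promoters. Their upstream bases are shown because they hold this match, with it and the overlapping TTTCCC or CACCTG in capitals. Ctrb1 lies at chr8:111691011-111691260 and Cela1 at chr15:100687921-100688170, both on the minus strand:
Ctrb1: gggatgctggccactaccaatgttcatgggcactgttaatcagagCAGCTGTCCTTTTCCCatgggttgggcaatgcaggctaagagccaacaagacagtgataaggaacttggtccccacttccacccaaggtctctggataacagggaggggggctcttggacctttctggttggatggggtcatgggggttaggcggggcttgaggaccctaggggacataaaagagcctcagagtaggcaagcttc
Cela1: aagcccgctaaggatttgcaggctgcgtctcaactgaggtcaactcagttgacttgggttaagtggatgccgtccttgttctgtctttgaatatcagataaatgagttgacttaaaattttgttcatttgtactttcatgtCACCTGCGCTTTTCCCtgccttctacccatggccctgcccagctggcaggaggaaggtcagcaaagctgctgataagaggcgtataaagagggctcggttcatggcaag

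The match lay 205 to 191 bases before the start in Ctrb1 and 109 to 95 bases before it in Cela1. CACCTG was in 5 of the 9 promoters, Cela1, Cela2a, Cela3b, Cpb1 and Prss2, against 17.2% of all promoters, and TTTCCC in 6 of the 9, against 21.9%. A match is a description of the sequence and does not show a bound site.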

How the data were processed

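Gene counts per library, as deposited by the authors for 49315 Ensembl genes, are whole numbers with no normalisation. Libraries began with 500 ng of RNA and poly(A) selection, per the labels' protocols. The sources used here name no aligner, counter, strand setting or read length. Of the genes, 49056 had their identifier in GENCODE M21 (GRCm38) and 44820 the same coordinates there; Cela1 and Pnlip did not.

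CPM was computed from each library's total, and RPKM from the length in the tables. Tests used edgeR 4.0.16 in R 4.3.3: TMM scaling, filterByExpr, and a robust quasi-likelihood fit of the 12 libraries of each sex, or of all 24 for sex differences. Calls were made at a Benjamini-Hochberg adjusted p under 0.05 over all tested genes, and SE is the fold change divided by the root of F. Scripts were tested on simulated data. Alternatives were DESeq2 1.42.0, other scaling, no low-count filter, a replicate block and fits without named libraries. Libraries were thinned to 1400000 counts for the chi-square comparison, and intervals are exact Clopper-Pearson at 95%, covering counting error only. Totals ran between 1429218 and 104003184 counts.

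The 10 genes and the marker lists were chosen with earlier results of these data known. All 10 genes are named. Of each other list, up to 3 called genes with the largest fold change per comparison could be named, as could the 3 genes most like each of the 10, and exceptions are stated. One gene that this rule would name is not reported here.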

Additional observations from a re-analysis of the deposited data

Results flagged for a closer look

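The effect of secretin differed between genotypes, by the interaction term of the edgeR quasi-likelihood fit, for 4 of the 10 genes in males. The interaction was 2.90 for Ctrb1, 2.85 for Reg1, 0.98 for Cela1 and -2.73 for Cpb1 on the log2 scale. In libraries labelled female it was 6.52 for Cela3b, where 2 of the 3 libraries in each of the WT secretin and dnTGFB groups were heart-rich.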

How the results depend on the processing

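Over 80 gene and comparison pairs, 910 of 1080 alternatives kept the direction and side of the threshold, 69 lost a call, 90 gained one and 11 changed direction.

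Leaving out 1 library gave 2 to 9 called genes for male dnTGFB against WT (6 with all libraries), 6 to 8 for male WT secretin against WT, 7 to 9 for male dnTGFB secretin against dnTGFB, 2 for male dnTGFB secretin against WT secretin (5 with all libraries) and 3 to 9 for the male interaction (9 without WT 1). For the female comparisons it gave 0 to 8 for WT secretin against WT and 0 to 6 for dnTGFB secretin against WT secretin, the highest both without WT secretin 1, and 0 to 10 for the interaction (10 without WT secretin 1, 9 without dnTGFB 3). For the sex differences it gave 0 to 8, 0 to 10, 0 to 2 and 0 to 9, in the order used in the report.

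With the 6 libraries alone, male dnTGFB against WT had 0 calls and male dnTGFB secretin against WT secretin 8. The second of these had 3 without the low-count filter and 8 without male WT 1 and dnTGFB 3, and the male interaction then had 10. DESeq2 called 9 in female WT secretin against WT, 5 in female dnTGFB secretin against WT secretin and 5, 9, 1 and 1 in the sex differences. It called 9 in the female interaction, where it called 31.6% of all tested genes. Without the female libraries farthest from their groups, each female comparison had 10. The female interaction had 0 with DESeq2 size factors, library totals or no low-count filter. Its median was 3.71 on the log2 scale without the heart-rich libraries, where female WT secretin and dnTGFB held 1 library each. Without the 2 male and 4 heart-rich libraries the sex differences had medians of -3.72, -7.95, -2.04 and 1.65 over the 10 genes on the log2 scale. Shares over all tested genes are not given here for the alternatives other than DESeq2, and the causes were not tested.

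Replicate numbers did not pair the libraries: deviations of same-numbered libraries correlated at -0.249 to 0.26 in males and -0.907 to 0.915 in females. A replicate block left 3 genes called in male dnTGFB secretin against WT secretin and 0 in the female interaction, and the other male counts were 5, 7, 9 and 3.

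Directions changed for values that missed the threshold. Ctrb1 in male WT secretin against WT was -0.0075 both without the 2 male libraries and without WT 1. Cela2a in male dnTGFB secretin against WT secretin was 0.067 with library totals. Reg1 in female dnTGFB against WT was 0.84 without the heart-rich libraries and -1.003 to 0.31 in fits without 1 library (0.22 without WT 1, 0.15 without dnTGFB 1). Reg1 in female dnTGFB secretin against dnTGFB was -0.81 without the heart-rich libraries and -0.31 to 1.02 without 1 library (-0.13 and -0.30 without dnTGFB 1 and 2).

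Summing all annotated trypsinogen copies gave 81.4 CPM in male dnTGFB secretin, 8.13 in male dnTGFB, 52.2 in male WT secretin, 3.19 in male WT, 189 in female dnTGFB secretin and 316 in female WT. On the TMM scale the 10 genes summed to 440.3 CPM in male dnTGFB secretin, 63.9 in male dnTGFB and 181 in male WT secretin.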

Other observations

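Of 3 testable gastric and salivary gland markers, 2 rose in male dnTGFB secretin against dnTGFB. Tff2, a trefoil peptide of gastric mucous cells, was higher by 2.83 ± 0.17 (SE, log2) in dnTGFB secretin against dnTGFB (edgeR adjusted p = 1.3e-05). Pgc, which encodes pepsinogen C, was higher by 2.89 ± 0.37 (SE, log2; edgeR adjusted p = 0.000817). Both fell in dnTGFB against WT, by 1.76 for Tff2 and by 2.20 for Pgc on the log2 scale. Of 7 testable intestinal epithelial markers 2 rose and 1 fell in the same secretin comparison, with a median log2 fold change of -0.14. Fabp2, a fatty acid binding protein gene of enterocytes, fell by 2.28 on the log2 scale. Lgals4, an intestinal galectin gene, was higher by 2.13 ± 0.19 (SE, log2) in dnTGFB secretin against dnTGFB (edgeR adjusted p = 9.56e-05).

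Of 10 testable islet markers 2 rose and 1 fell in male dnTGFB secretin against dnTGFB. Chga, a granule protein gene of endocrine cells, fell by 2.44 on the log2 scale. It had 94, 104 and 125 counts in dnTGFB secretin libraries and 47, 57 and 91 counts in dnTGFB libraries. The 91 counts were in male dnTGFB library 3, with only 1429218 counts in all, so the size of the fall leans on that library. Ins2 was higher by 4.03 ± 0.99 (SE, log2) in male dnTGFB secretin against dnTGFB (edgeR adjusted p = 0.0192), at 1.58 to 2.75 CPM in dnTGFB secretin and 0 to 0.131 CPM in dnTGFB.

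Library pairs that lay close under different labels also had close levels of the 10 genes. Female dnTGFB secretin 1 was at 0.949 to 1.1 times female WT 2, and female dnTGFB secretin 3 at 0.977 to 1.4 times female WT secretin 1.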
